A study of Mus musculus with 3 samples.

Results

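Eukaryotic genes are wrapped in nucleosomes, and ATP-dependent chromatin remodelers slide, evict or exchange them. The genes described here are the subunits of the SWI/SNF, CHD, NuRD, ISWI and INO80 remodelers in ALSCs, a primed mouse stem cell line. They were taken from the deposited count table by name: all protein-coding rows named *Smarc* followed by a letter from a to e, *Chd* followed by a digit, or *Ino80*, together with named genes for SWI/SNF (*Arid1a*, *Arid1b*, *Arid2*, *Pbrm1*, *Brd7*, *Brd9*, *Dpf1*, *Dpf2*, *Dpf3*, *Phf10*, *Actl6a*, *Actl6b*), for NuRD (*Hdac1*, *Hdac2*, *Mta1*, *Mta2*, *Mta3*, *Gatad2a*, *Gatad2b*) and for the RUVBL ATPases. The rule gave 49 of 55421 named genes, of which 21926 were protein-coding. It used names only and no measured value.

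ALSCs were derived from epiblasts of embryos at E6.5 that came from female ICR mice mated with GOF/GFP males, which carry a GFP reporter of *Oct4*. They were kept in medium with Activin A and LIF. RNA-seq was read in 3 libraries of this 1 condition, with no treatment and no second genotype, so levels were described and no groups were compared. The study calls the libraries biological replicates, but the labels do not say whether the 3 libraries came from separate cultures or from separate embryos, and all values on the spread between them may therefore include technical spread only.

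SWI/SNF complexes carry 1 of 2 related ATPases and come as canonical BAF, as PBAF and as a smaller non-canonical form, each marked by its own subunits. Most of their positions can be filled by alternative paralogs, and embryonic stem cells are known for a form called esBAF, built around SMARCA4 with ARID1A, SMARCC1, SMARCD1, ACTL6A and DPF2. Neurons and heart muscle are known to use other paralogs at the same positions, such as ACTL6B, DPF1 and SMARCD3. NuRD joins the CHD3, CHD4 or CHD5 ATPase to histone deacetylases, ISWI ATPases space nucleosomes, and INO80 works with the RUVBL ring and the histone variant H2A.Z.

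The libraries were of similar depth, with total counts on named genes between 18037342 and 18724038. FPKM (fragments per kilobase of gene, scaled to a fixed library total) was computed from the counts, the gene length in the table and these totals. The labels call the cells embryonic stem cells, and this was checked with marker genes. All 6 pluripotency markers reached 1 FPKM in all libraries, led by *Pou5f1* at 648 ± 25.3 FPKM (SD, n = 3). The lowest of them were *Otx2* at 5.08 and *Fgf5* at 3.89 FPKM. None of 4 naive markers reached 1 FPKM in all libraries, and *Zfp42* and *Tbx3* had at most 3 counts in each library. *Esrrb* was detected, with 63, 107 and 92 counts and a mean of 0.788 FPKM, and *Klf4* had 19, 16 and 22 counts (0.342 FPKM). The list left out *Klf2* and *Nr5a2*, naive markers that the study reports as higher in ALSCs than in epiblast stem cells. Of 5 markers of extraembryonic endoderm, 0 reached 1 FPKM in all libraries, and their summed level was between 0.455 and 0.587 FPKM. For fibroblasts, 2 of 7 markers reached it, *Thy1* at 6.88 and *Col1a1* at 5.04 FPKM, and the sum ranged from 11.4 to 12.9 FPKM. Another 4 of the 7 (*Postn*, *Lum*, *Dcn*, *Col3a1*) did not exceed 3 counts in any library.

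As a group, the remodeler genes were abundantly transcribed. Of the 49 members, 43 (87.8%) had at least 1 FPKM in all libraries, beside 10023 of 21926 protein-coding genes (45.7%). The median of these 43 was 17.7 FPKM, beside 8.40 FPKM for all protein-coding genes that passed the same threshold, and 28 members lay above the latter value. Over all 49 members the median was 11.9 FPKM. They took 0.548% of the counts of replicate 1, 0.668% of replicate 2 and 0.662% of replicate 3. By the table length the highest members were *Ruvbl2* and *Ruvbl1*, followed by *Chd4*, *Hdac2*, *Mta1* and *Mta2*. At the other end, *Smarca2*, *Smarcd3*, *Dpf3* and *Actl6b* were under 1 FPKM in all libraries, and *Ino80d* and *Chd5* lay on either side of it. For *Smarca2* and *Smarcd3* this rests on the length used. The table gives the joint length of all annotated exons of a gene, and with the length of the longest coding transcript their means were 1.87 and 1.23 FPKM in place of 0.777 and 0.416. At a threshold of 1 TPM, 47 members passed in all libraries. Between neighbours in the order of mean FPKM, the ranges of the 3 libraries overlapped in 38 of 48 pairs. These ranges were not paired by library, and genes share their libraries, so overlap alone does not settle the order of 2 neighbours. In these bulk samples, fewer cells with a transcript and less of it per cell cannot be told apart.

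**Figure D1:**
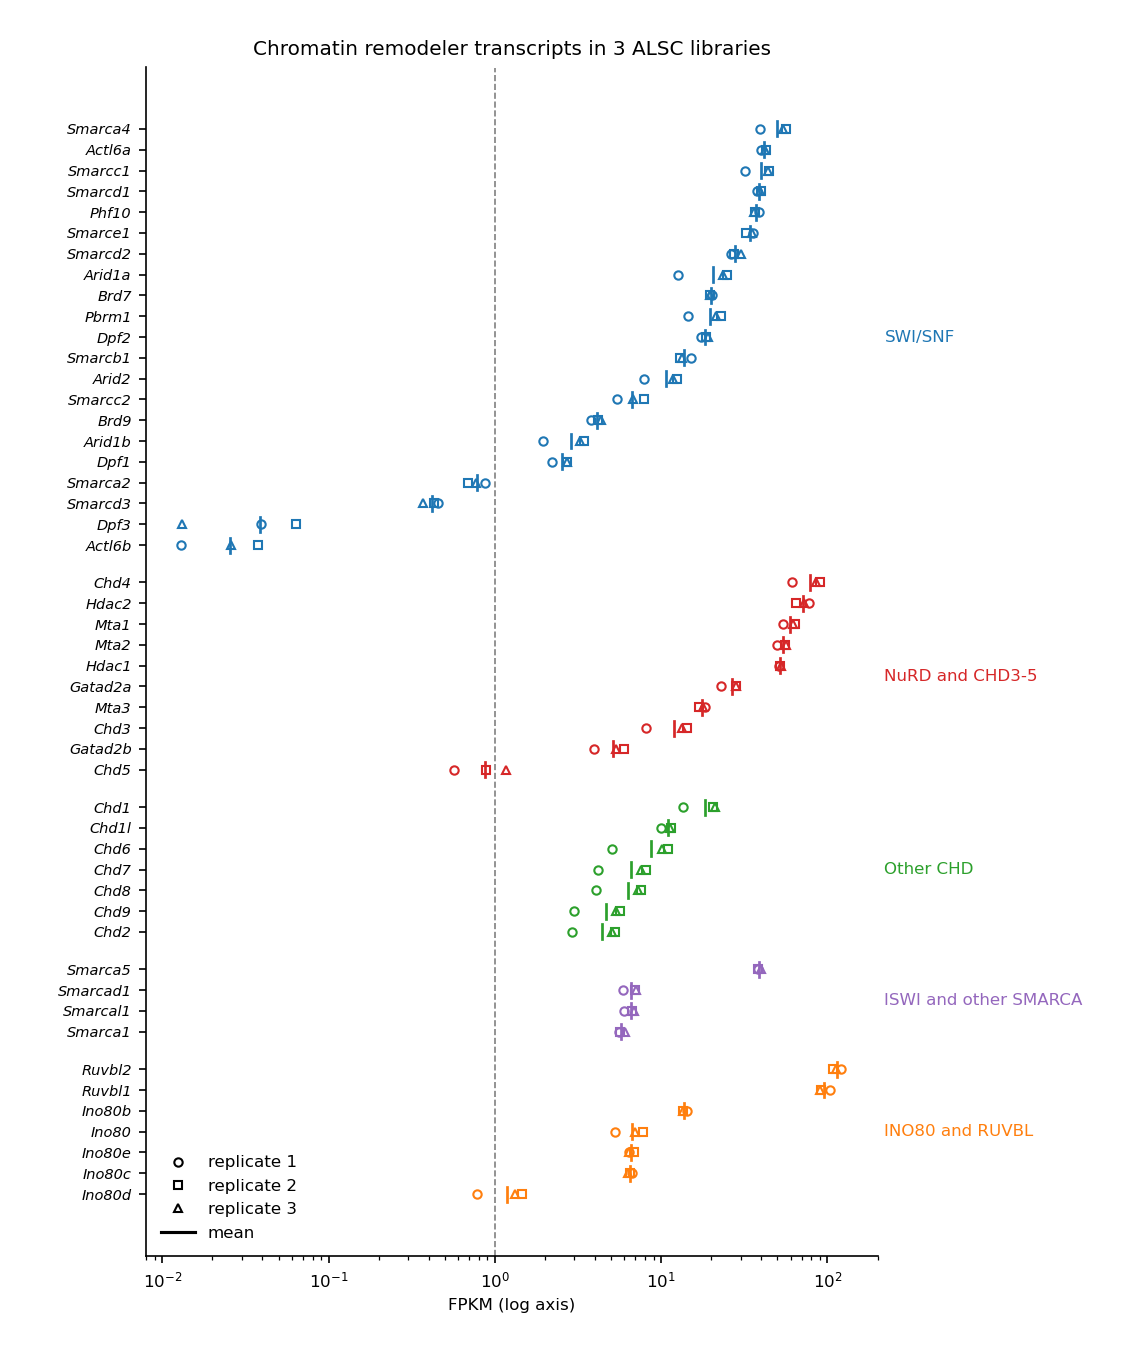
FPKM of the 49 chromatin remodeler genes (log axis), grouped by complex and ordered by mean within each group. Open symbols are the 3 ALSC libraries, short vertical bars their mean, and the dashed line marks 1 FPKM; *Ruvbl2* had the highest mean (114) and *Actl6b* the lowest (0.0255).

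To show the sequence in front of expressed and scarcely expressed paralogs, the 200 bases before the transcription start of 3 contrasted pairs are given, on the strand of the gene, from RefSeq promoters of build GRCm38.p6. Capitals mark CpG dinucleotides, the sites of DNA methylation in mammals. For each pair the first gene was the abundant paralog and the second the scarce one.
Smarca4: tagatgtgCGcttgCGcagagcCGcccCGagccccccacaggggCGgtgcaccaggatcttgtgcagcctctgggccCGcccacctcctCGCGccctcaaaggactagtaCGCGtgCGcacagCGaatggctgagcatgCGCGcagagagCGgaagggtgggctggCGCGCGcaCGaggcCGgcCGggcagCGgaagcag
Smarca2: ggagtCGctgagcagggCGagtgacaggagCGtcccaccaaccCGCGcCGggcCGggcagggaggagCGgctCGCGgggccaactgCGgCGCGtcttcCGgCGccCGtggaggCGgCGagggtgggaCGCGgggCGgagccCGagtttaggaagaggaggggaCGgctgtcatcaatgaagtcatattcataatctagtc
Actl6a: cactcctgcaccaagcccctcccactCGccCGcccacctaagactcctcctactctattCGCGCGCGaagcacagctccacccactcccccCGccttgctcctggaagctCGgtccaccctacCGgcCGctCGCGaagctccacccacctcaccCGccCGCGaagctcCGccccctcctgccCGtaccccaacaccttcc
Actl6b: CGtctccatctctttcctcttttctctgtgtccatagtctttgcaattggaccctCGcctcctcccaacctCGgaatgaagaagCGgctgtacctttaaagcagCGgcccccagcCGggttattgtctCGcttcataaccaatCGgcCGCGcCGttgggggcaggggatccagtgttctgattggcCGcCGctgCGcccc
Dpf2: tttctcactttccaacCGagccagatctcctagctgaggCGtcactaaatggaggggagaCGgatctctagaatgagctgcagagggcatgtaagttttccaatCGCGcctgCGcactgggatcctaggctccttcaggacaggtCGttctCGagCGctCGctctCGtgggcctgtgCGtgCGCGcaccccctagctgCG
Dpf3: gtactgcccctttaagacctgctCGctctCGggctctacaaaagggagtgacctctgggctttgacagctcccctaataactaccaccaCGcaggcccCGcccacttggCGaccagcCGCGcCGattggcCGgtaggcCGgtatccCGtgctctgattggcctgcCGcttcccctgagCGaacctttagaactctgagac
These windows lie at chr9:21615969-21616168 (*Smarca4*, plus strand), chr19:26604960-26605159 (*Smarca2*, plus strand), chr3:32708346-32708545 (*Actl6a*, plus strand), chr5:137553346-137553545 (*Actl6b*, plus strand), chr19:5912872-5913071 (*Dpf2*, minus strand) and chr12:83487737-83487936 (*Dpf3*, minus strand). The window of *Smarca4* held 22 CpG and that of *Smarca2* 23. *Actl6a* had 17 and *Actl6b* 14, and *Dpf2* had 15 and *Dpf3* 13. In these 3 pairs the scarce paralog held about as many CpG as the abundant one, with a difference of at most 3 in each pair. This did not hold for all paralogs. In the longer promoter windows of the next paragraph, *Smarca5* had 32 CpG and the less abundant *Smarca1* had 9. Other differences went the opposite way, for example 22 for *Arid1a* and 42 for the less abundant *Arid1b*. Likewise, *Chd4* had 17 and the scarce *Chd5* had 32.

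Of the 49 members, 39 had a promoter of 300 bases (250 before and 50 after the start) among the 32851 in the RefSeq table. *Ino80c*, *Chd1*, *Smarce1*, *Chd7*, *Ino80d*, *Hdac1*, *Chd3*, *Arid2*, *Chd2* and *Mta3* had no entry. Where a gene had several starts, the one nearest to the 5′ end of the gene in the authors' table was taken. It still lay 22409 bases from that end for *Smarcd3*, 14316 for *Smarcc1*, 5340 for *Smarcd2*, 3632 for *Ruvbl2* and 2248 for *Actl6a*, and which start these cells use was not tested. Members held a median of 26 CpG in these 300 bases, against 7 over all promoters. The set of all promoters was not limited to 1 start per gene or to expressed genes. Members had 1 start each and most were expressed, so this and the following comparisons are of unlike sets. At least 10 CpG were found for 37 of 39 members (94.9%), beside 43.5% of all promoters. *Smarcd2*, with 4 in a window far from the 5′ end of the table, and *Smarca1*, with 9, were the exceptions. The 5 members with a mean under 1 FPKM had between 17 and 40 CpG, inside the range of the 34 others. The 40 belonged to *Smarcd3*, whose window was the farthest off. The letters GGGCGG, which SP and KLF factors bind, occurred on either strand in 35 of 39 members (89.7%) and in 35.7% of all promoters. CCAAT occurred in 38.5% of members and 37.4% of all promoters, CCGGAAG in 15.4% and 8.86%, and AAGATGGCG in 2.56% and 1.40%. GGGCGG is made of G and C alone, and GC content was also higher in members, with a median of 64.0% against 52.7%. These are matches of letters only.

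At the ATPase position of SWI/SNF, ALSCs transcribed *Smarca4* and hardly any *Smarca2*. *Smarca4* (also known as Brg1, chr9:21616169-21704230) had 39.5, 56.3 and 54.1 FPKM in replicates 1, 2 and 3. *Smarca2* (Brm, chr19:26605050-26778322) had 0.868, 0.689 and 0.773 FPKM. The *Smarca4* share of the pair was 98.4% ± 0.496 (SD, n = 3), and the 3 libraries gave ratios of 45.5, 81.7 and 70.0. *Smarca2* was not absent, since 224, 184 and 199 reads were counted on it. The ratio depended on the length that divides the counts. The joined exons of *Smarca2* come to 14269 bases, and with the longest coding transcript the mean ratio was 27.7.

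The large ARID subunits define canonical BAF, and *Arid1a* led over *Arid1b* in all libraries. *Arid1a* had 12.6, 25.03 and 23.5 FPKM and *Arid1b* 1.93, 3.45 and 3.26 FPKM. Both were lowest in replicate 1, and the *Arid1a* share was nonetheless close between libraries, at 86.7%, 87.9% and 87.8%. PBAF is marked by *Arid2* with *Pbrm1*, *Brd7* and *Phf10*. *Arid2* had 7.86, 12.5 and 11.8 FPKM and *Pbrm1*, a protein of many bromodomains, had 14.5, 22.7 and 21.4 FPKM. *Brd7* had 20.3, 19.6 and 19.7 FPKM, and *Phf10*, the PHD finger subunit of PBAF, had 38.6, 36.7 and 36.1 FPKM. The PBAF subunits were thus all transcribed, but not at equal levels, and the ranges of *Phf10* and *Arid2* were far apart. *Brd9*, a bromodomain protein of the non-canonical complex, was lower, with 3.77, 4.14 and 4.34 FPKM.

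The SMARCC scaffold, around which the complex is assembled, was mostly *Smarcc1* (BAF155). It had 31.7, 44.4 and 44.1 FPKM, against 5.44, 7.88 and 6.81 FPKM for *Smarcc2* (BAF170), and its share was 85.6% ± 0.884 (SD, n = 3). At the SMARCD (BAF60) position 2 paralogs were present at similar levels. *Smarcd1* had 37.5, 40.1 and 39.4 FPKM and *Smarcd2* had 26.3, 27.3 and 30.1 FPKM, while *Smarcd3* stayed between 0.368 and 0.453 FPKM. The ratio of *Smarcd1* to *Smarcd2* was 1.40 ± 0.0818 (SD, n = 3) and above 1 in all 3 libraries. *Smarcd3* is the paralog known from heart and skeletal muscle. Its 34 to 42 counts cannot be assigned to it with certainty, because 48.2% of its exon bases lie opposite exons of *Chpf2*, which had a mean of 2.05 FPKM, and the sources do not say whether strand was used in counting.

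The actin-related subunit showed the sharpest choice. *Actl6a* (BAF53A) had 39.7, 42.5 and 41.9 FPKM, whereas *Actl6b* (BAF53B), the neuronal paralog, had 1, 3 and 2 counts in all. Summed over the libraries and divided by length, *Actl6a* was 1614-fold higher, with an exact 95% interval of 741 to 4398 that covers counting error only. With the longest coding transcript it was 1164-fold higher. Of the *Actl6a* transcript 79.2% of the 50-base words were unique, and 11.6% of its exon bases lie opposite exons of other genes, *Mrpl47* foremost. *Actl6b* was the sole member with no more than 3 counts in any library, the limit that a count of 0 allows and below which a gene is taken as not detected. Among the DPF (BAF45) subunits, *Dpf2* led with 17.3, 18.6 and 19.2 FPKM. *Dpf1*, known from neurons, followed with 2.20, 2.72 and 2.71 FPKM, a share of 12.1% ± 0.763 (SD, n = 3). *Dpf3*, known from heart and muscle, had 3, 5 and 1 counts, and *Dpf2* exceeded it 473-fold, with an exact 95% interval of 249 to 1036. By the longest coding transcript the factor was 689.

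Markers of the tissues known for the scarce paralogs were read in the same libraries. Of 7 neuronal markers, 2 (*Stmn2* at 114 FPKM and *Tubb3* at 28.0 FPKM) reached 1 FPKM in all libraries, and the sum of the list was between 134.9 and 158.6 FPKM, highest in replicate 1. The other 5 had mean levels of 0.984 (*Map2*), 0.363 (*Snap25*), 0.225 (*Rbfox3*), 0.0688 (*Dcx*) and 0.0414 FPKM (*Syt1*). Of 5 cardiac markers, 0 reached 1 FPKM in all libraries, the sum was between 1.31 and 3.70 FPKM, and *Nkx2-5* and *Tnnt2* had at most 3 counts in each library. *Myl7* made up most of the sum, with 3.00, 0.996 and 1.41 FPKM in replicates 1, 2 and 3 (32, 11 and 15 counts). *Actc1* and *Myh6* had means of 0.305 and 0.144 FPKM. Whether cells of these types contributed to *Dpf1*, *Smarcd3* or *Chd5* was not tested.

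Subunits without a paralog in the rule were also present. *Smarce1* (BAF57), which carries an HMG domain, had 35.5, 32.3 and 35.0 FPKM and *Smarcb1* (BAF47), which contacts the nucleosome, had 15.1, 12.9 and 13.3 FPKM. The place of *Smarcb1* in the order rested on its length. Its exons join to 7930 bases, and with the longest coding transcript its mean rose from 13.8 to 65.8 FPKM and its rank from 24 to 10. *Phf10* moved likewise, from 37.1 to 110 FPKM and from rank 13 to rank 2, and *Smarce1* from 34.3 to 78.1 FPKM. Of the *Phf10* transcript 82.2% of the 50-base words were unique. Part of the *Smarce1* transcript occurs in pseudogenes, 64.9% of its words being unique, and with the counts of 3 pseudogenes added it had 38.7 in place of 34.3 FPKM by the table length. For *Smarca4* the change with length was small, from 49.95 to 50.7 FPKM. The ratio of these levels does not give the ratio of the subunits in the complex, and the 2 lengths order them differently.

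**Figure D2:**
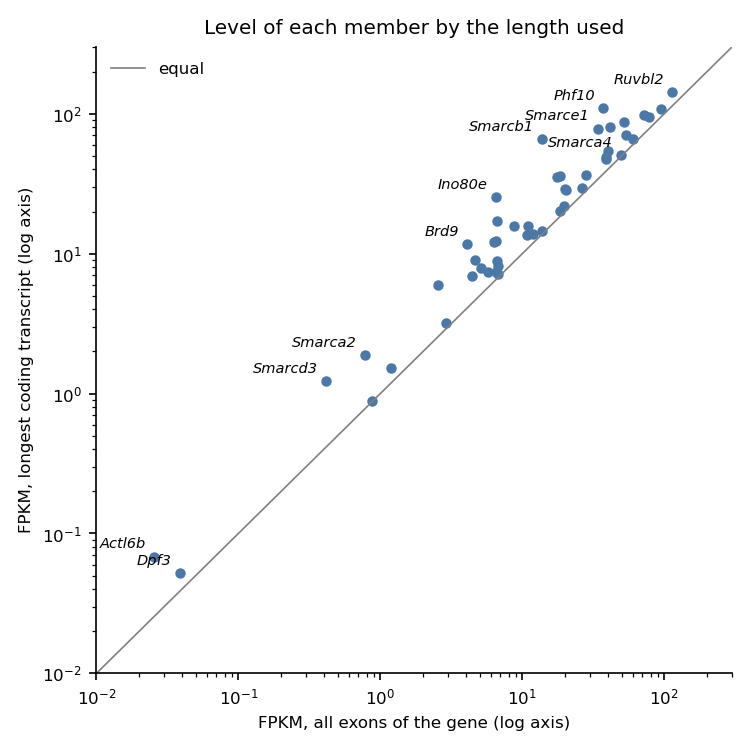
Mean FPKM of each member with the joint length of all its exons (horizontal log axis) against the length of its longest coding transcript (vertical log axis), over 3 ALSC libraries. Points on the line have equal values; *Smarcb1* (13.8 and 65.8 FPKM) and *Phf10* (37.1 and 110 FPKM) lie far above it, while *Smarca4* lies near it.

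Within NuRD, the ATPase was mostly *Chd4* (Mi-2 beta). It had 61.1, 90.2 and 84.8 FPKM, rank 3 among all members. *Chd3* had 8.09, 14.3 and 13.3 FPKM and *Chd5*, a paralog known from brain and testis, had 0.565, 0.886 and 1.16 FPKM. The shares were 86.2% ± 1.21 for *Chd4*, 12.9% ± 1.09 for *Chd3* and 0.941% ± 0.200 for *Chd5* (SD, n = 3). All 3 were lowest in replicate 1, as the ARID genes were. *Gatad2a*, which links the remodeling and the deacetylase module, had 22.9, 28.3 and 28.2 FPKM, and *Gatad2b* had 3.92, 5.997 and 5.38 FPKM, leaving *Gatad2a* with 84.0% ± 1.44 (SD, n = 3).

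The deacetylases were more even. *Hdac2* had 76.9, 64.8 and 72.6 FPKM and *Hdac1* 51.0, 51.6 and 52.3 FPKM, and *Hdac2* was higher in all 3 libraries. This order cannot be relied on, because only 41.3% of the 50-base words of the *Hdac1* transcript occur in no other gene. A processed pseudogene, *Gm10093* (chr17:78491582-78493025), shares 80.4% of its own words with *Hdac1* and was credited with 3109, 3257 and 3217 counts, nearly as many as the 3180, 3331 and 3247 of *Hdac1* itself. With the counts of this and 2 other *Hdac1* pseudogenes added, an alternative chosen after seeing the data, *Hdac1* rose to 108, 111 and 113 FPKM and above *Hdac2*, whose share fell from 58.0% to 39.2%. How reads with several matching positions were counted is not given in the sources used here. *Hdac2* had no shared words.

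The MTA proteins bind the deacetylases, and 2 of 3 paralogs were close. *Mta1* had 54.3, 63.4 and 62.0 FPKM, *Mta2* 49.6, 55.3 and 56.7 FPKM and *Mta3* 18.3, 16.8 and 17.9 FPKM. *Mta1* was ahead of *Mta2* in each library by a factor of 1.09 to 1.15. The order reversed with the length of the longest coding transcript, where *Mta2* led in all 3 libraries with 41.0% against 38.4% for *Mta1*, and *Mta3* was again the lowest. Neither of them can therefore be called the leading paralog, while *Mta3* was lowest under each length.

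**Figure D3:**
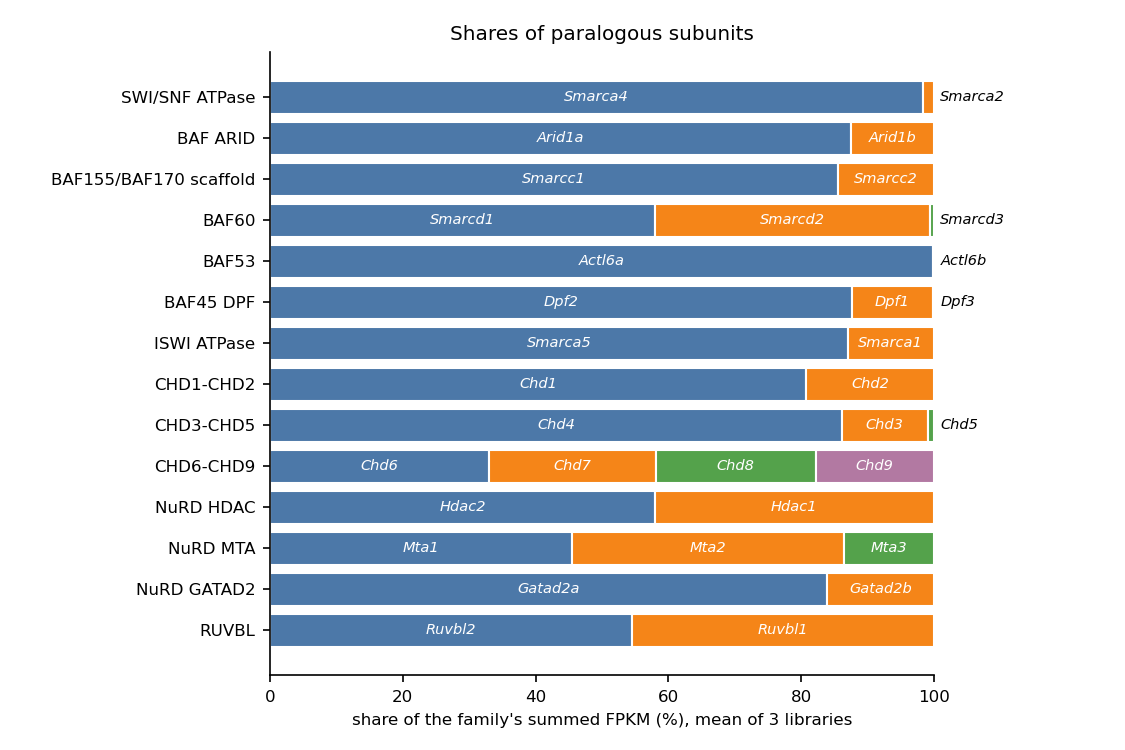
Share of each paralog in the summed FPKM of its family (%), mean of 3 ALSC libraries, with the gene names inside the bars or, for shares of at most 9%, at their right. *Actl6a* (99.9%) and *Smarca4* (98.4%) filled nearly all of their families, whereas the CHD6 to CHD9 family was split 4 ways.

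The other CHD proteins fell into families with and without a clear leader. *Chd1*, which binds methylated histone H3 at active genes and is known to keep the chromatin of embryonic stem cells open, had 13.6, 20.6 and 21.0 FPKM. Its paralog *Chd2* had 2.90, 5.28 and 5.08 FPKM, and the share of *Chd1* was 80.8% ± 1.45 (SD, n = 3). *Chd6*, *Chd7*, *Chd8* and *Chd9* form a subfamily of their own, in which CHD7 is known from CHARGE syndrome and CHD8 from autism. *Chd6* had 5.09, 11.0 and 10.1 FPKM, and *Chd7* 4.14, 8.08 and 7.53 FPKM. *Chd8* had 4.04, 7.52 and 7.29 FPKM and *Chd9* 2.98, 5.62 and 5.33 FPKM. All 4 were lowest in replicate 1, with shares of 33.0%, 25.1%, 24.1% and 17.8%. *Chd6* led in each library, also with the longest coding transcript. Its ratio to *Chd7* was 1.23, 1.36 and 1.35 in replicates 1, 2 and 3, although the ranges of the 4 over the libraries overlapped. *Chd1l* (ALC1), a remodeler recruited by poly(ADP-ribose), had 9.94, 11.5 and 11.3 FPKM.

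Of the ISWI ATPases, *Smarca5* (SNF2H) had 38.2, 38.0 and 39.8 FPKM and *Smarca1* (SNF2L) 5.61, 5.66 and 6.04 FPKM. The *Smarca5* share, 87.0% ± 0.184 (SD, n = 3), varied little between the libraries. *Smarca5* has 6 processed pseudogenes among the counted genes, which share between 29.1% and 44.6% of their words with it, and adding their counts raised its mean from 38.7 to 40.8 FPKM. *Smarcad1*, which acts behind replication forks, had a mean of 6.62 ± 0.657 FPKM and *Smarcal1*, which rewinds stalled forks, 6.54 ± 0.476 FPKM (SD, n = 3).

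The RUVBL ATPases, which INO80 shares with other complexes, had the highest FPKM of all members by the table length. *Ruvbl2* had 121, 108 and 112 FPKM and *Ruvbl1* 103, 91.2 and 90.8 FPKM. Their ratio was 1.20 ± 0.0339 (SD, n = 3), and *Ruvbl2* was higher in all 3 libraries. For *Ruvbl2*, 85.4% of the transcript words were unique, and 15.4% of its exon bases lie opposite exons of other genes, *Gys1* foremost. Of the *Ruvbl1* transcript 43.8% of the words were unique, but its pseudogene *Gm5837* was credited with 57, 69 and 71 counts only, and adding them gave *Ruvbl1* 96.9 in place of 95.04 FPKM. *Ruvbl1* was not above all other members under each choice, because *Phf10* (110 FPKM) passed it (108 FPKM) with the longest coding transcript, and *Hdac1* (111 FPKM) with pseudogene counts added. The ATPase *Ino80* itself had 5.30, 7.81 and 6.98 FPKM. Its accessory subunits were *Ino80b* at 13.8 ± 0.409, *Ino80e* at 6.54 ± 0.258, *Ino80c* at 6.52 ± 0.187 and *Ino80d* at 1.18 ± 0.358 FPKM (SD, n = 3). This order rested on the length, since with the longest coding transcript *Ino80e* had 25.4 FPKM and lay above *Ino80b* at 14.6 FPKM. *Ino80d* had 0.780, 1.46 and 1.31 FPKM and was thus under 1 FPKM in replicate 1 alone. For *Ino80e*, 57.3% of the transcript words were unique, and 16.4% of its exon bases lie opposite exons of *Doc2a*.

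Other subunits of the same complexes were read from lists chosen for their known membership. All 10 other SWI/SNF subunits reached 1 FPKM in all libraries, from *Bcl11a* at 1.29 FPKM to *Actb*, which is both a subunit and the cytoskeletal actin, at 450 FPKM. Of 8 other NuRD subunits 7 did, led by the histone chaperone *Rbbp7* at 105 FPKM, while *Cdk2ap2* had 0 counts. All 7 other INO80 subunits did, from *Nfrkb* at 2.65 to *Mcrs1* at 34.2 FPKM. So did all 9 ISWI partners, from *Baz2b* at 1.48 to *Pole3* at 27.5 FPKM, and all 11 other SNF2 family ATPases, from *Ercc6* at 1.91 to *Hells* at 45.8 FPKM. In the related SRCAP and TIP60-p400 complexes 13 of 14 subunits did, led by *Yeats4* at 73.9 FPKM, and the ATPase *Srcap* itself had 0.162 ± 0.0804 FPKM (SD, n = 3) from 22, 70 and 49 counts. Overlap with other genes and shared words were examined for the 49 members only. Whether reads of *Srcap* or *Cdk2ap2* were lost in counting was therefore not tested.

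The remodelers did not have equal levels in the 3 libraries. A chi-square test of homogeneity was run on the counts of each gene against library sizes scaled by TMM, with Benjamini-Hochberg adjustment over all genes with at least 10 counts. It covers counting error only, and with 1 condition a call means that libraries of the same cells differed. Of 47 members tested, 34 (72.3%) varied at an adjusted p under 0.05, beside 47.2% of all genes tested. The test finds more in deeply counted genes, and members were deeply counted. Among genes with at least 1000 counts in total, a restriction chosen after seeing the data, 32 of 43 members (74.4%) varied, beside 72.3% of all such genes, so the share of the members was near the background.

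Replicate 1 decided these calls. Without it, 6 of 43 members with at least 1000 counts (14.0%) varied, beside 12.6% of all such genes. These 6 were *Chd4*, *Hdac2*, *Ruvbl2*, *Smarca5*, *Smarcd2* and *Smarce1*. Without replicate 2, 29 of the 43 varied (67.4%), beside 65.3% of such genes, and without replicate 3, 31 (72.1%), beside 69.7%. The direction was not even either. Of the 43 members with at least 1000 counts, 22 (51.2%) varied and were lowest in replicate 1, beside 33.6% of all such genes. Another 9 (20.9%) varied and were highest in replicate 1, beside 36.3% of all such genes.

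Among members with at least 1000 counts, *Chd6*, *Arid1a* and *Chd7* had the widest spreads. On TMM library sizes *Chd6* differed 2.04-fold between its lowest and highest library, with log2 deviations from its mean over the libraries of -0.65, 0.37 and 0.28 (adjusted p = 7.0e-150 by the chi-square test with Benjamini-Hochberg adjustment). *Arid1a* differed 1.88-fold, with deviations of -0.59, 0.33 and 0.26, and *Chd7* 1.84-fold, with -0.56, 0.32 and 0.24. At the other end, *Actl6a* (adjusted p = 0.900) and *Smarcd1* (adjusted p = 0.921) did not pass the same test, and their deviations were at most 0.01 in size. *Hdac1* (0.296) and *Dpf2* (0.139) did not pass it either. A few members went the other way and were highest in replicate 1, among them *Ruvbl1* with deviations of 0.17, -0.09 and -0.08, *Smarcb1* with 0.18, -0.12 and -0.06, and *Hdac2* with 0.16, -0.17 and 0.02.

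The deviations moved with gene length, in members as in all genes. Of 17 members whose exons join to at least 8000 bases, replicate 1 was the lowest library in 16, beside 79.9% of all genes of that length, and all 17 varied, beside 73.3%. The exception was *Smarca2*, lowest in replicate 2 (adjusted p = 0.0329). The median deviation in replicate 1 was -0.48 in these 17 members and -0.23 in all genes of that length. In the longest of 20 groups of all genes by length it was -0.34. These members were not matched to all genes for depth, or for length within this class, so the shares are not a like comparison. Of 22 members of at least 4000 and under 8000 bases, replicate 1 was lowest in 12 (all genes 55.3%), and of 8 shorter members in 2 (all genes 17.5%). Across genes, Spearman's correlation of the deviation in replicate 1 with length was -0.68 over the 47 members with at least 100 counts and -0.60 over 12402 genes. Genes are not independent replicates, and the points share their library. The cause of this trend was not tested.

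**Figure D4:**
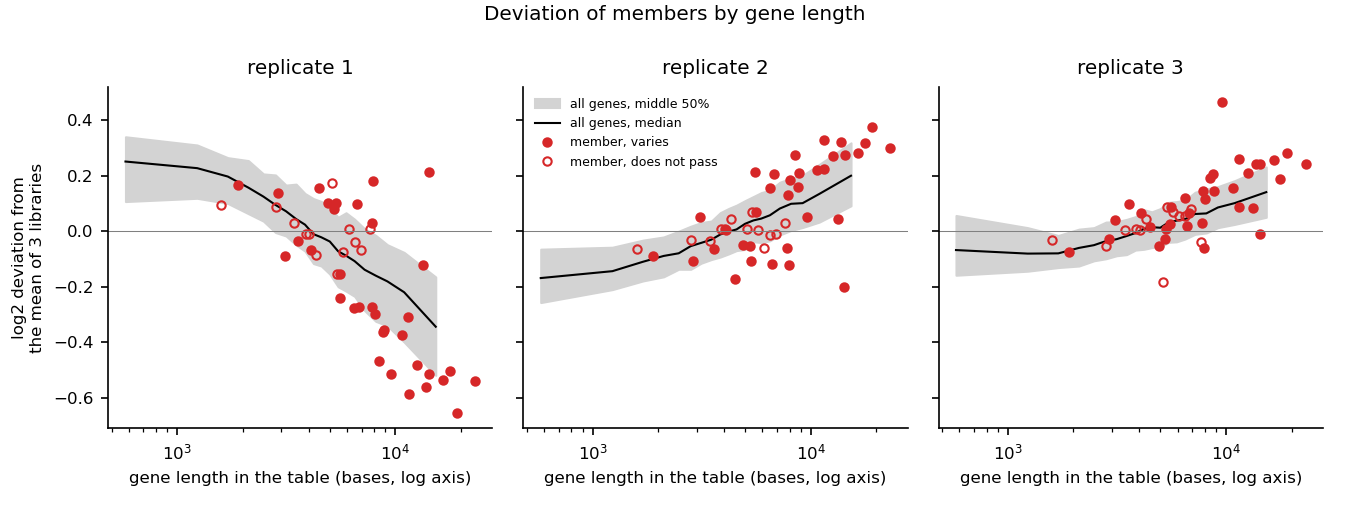
Log2 deviation of each member from its mean over the 3 ALSC libraries, against the gene length in the table (bases, log axis), with 1 panel for each library. Filled points varied by the chi-square test and open points did not pass it; the black line and grey band are the median and middle 50% of all genes in 20 groups by length, and in replicate 1 the members of at least 8000 bases lie at a median of -0.48.

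With the median of genes of similar length taken as the reference, the spread of many long members shrank but did not vanish. *Arid1a* then deviated by -0.37, 0.19 and 0.16 and *Chd6* by -0.31, 0.17 and 0.14. *Chd3* deviated by -0.31, 0.18 and 0.13. Not all long members moved this way. The spread of *Smarca2* widened, from 0.21, -0.20 and -0.01 to 0.56, -0.40 and -0.15. *Smarcad1* changed sides, from -0.12, 0.04 and 0.08 to 0.22, -0.16 and -0.06. Among members with at least 1000 counts, 31 of 43 (72.1%) varied against this reference, beside 60.2% of all such genes. Of the 34 members that varied before, 31 still did, and *Arid1b*, *Ino80d* and *Ruvbl1* no longer did. *Dpf2* (adjusted p = 0.0164 by the chi-square test) and *Ino80e* (0.00252) varied on this scale and not before. Relative to genes of its length, *Smarca5* was higher in replicate 1, with deviations of 0.19, -0.16 and -0.03. Before, replicate 1 was the lowest library for 30 of the 47 members with at least 100 counts, beside 43.0% of all such genes. On this scale it was again the lowest for 30 members, of which 26 were shared. The share over all genes was not computed on this scale. *Brd9*, *Dpf2*, *Smarcad1* and *Smarcal1* left this set, and *Hdac1*, *Ino80b*, *Ruvbl1* and *Smarcd2* entered it.

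Joined exons exceeded the longest coding transcript for all members, by a median factor of 1.36. The reference was therefore also set by the length of the longest coding transcript, an alternative chosen after seeing the data. Then 22 of 43 members (51.2%) varied, beside 49.0% of all genes with at least 1000 counts, so the share of the members was again near the background. Over all 47 members tested, 25 (53.2%) varied, beside 32.3% of all genes tested, and 20 of these 25 had varied in the first test. *Actl6a*, *Hdac1*, *Dpf1*, *Ino80e* and *Smarca1* were the others. *Actl6a* deviated by -0.13, 0.08 and 0.05 (adjusted p = 1.6e-07 by the chi-square test). Members that no longer passed included *Chd4* (adjusted p = 0.213), *Smarca4* (0.171), *Pbrm1* (0.459) and *Arid2* (0.403). *Arid1a* deviated by -0.26, 0.14 and 0.12 and *Chd6* by -0.23, 0.13 and 0.11. *Smarcb1* depended on the length, with deviations of 0.34, -0.22 and -0.12 by joined exons and of 0.05, -0.04 and -0.01 by the transcript, where it did not pass the chi-square test (adjusted p = 0.256). *Smarca5* was highest in replicate 1 by both lengths, with 0.27, -0.20 and -0.07 by the transcript.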

How the data were processed

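RNA-seq of 3 ALSC libraries was analysed. The authors deposited raw counts per gene, without normalization. The submitters' processing notes name HISAT2 2.0.5, the study's methods name the GRCm38 genome, and the counting program, its handling of strand and of reads with several matching positions are not given in the sources used here. The labels name Trizol extraction and a polyA TruSeq library. In the table, 3 further columns of counts match no sample here and were not used. The 317 rows without a gene name, 0.165% to 0.182% of the counts, were left out, so 55421 of 55738 rows remained. The members and lists were chosen with earlier results of these data known. All members were named. Paralogs received a value in every library, and the lists of other subunits were given as counts with their highest and lowest gene and those at or under 3 counts. Table lengths equal the joined exons of GENCODE M21 for 99.3% of matched genes. Deviations are log2 of counts plus 0.5 per TMM library size, minus the mean over libraries, for genes with at least 100 counts. The software was edgeR 4.0.16 and DESeq2 1.42.0 under R 4.3.3, and SciPy 1.17.1 and matplotlib 3.10.9 under Python 3.11.15. Alternatives covered units, lengths, thresholds, scaling, trends and left-out replicates. Simulated counts with known changes served to test the chi-square script. Reads carried no molecular identifiers, so intervals and limits express counting error alone.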

Additional observations from a re-analysis of the deposited data

Results flagged for a closer look

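Rows of other biotypes whose names match the gene family names but which the comparisons above do not use also carried counts above the limit of 3 that a count of 0 allows. There were no control samples. *Ino80dos*, a long noncoding RNA that overlaps *Ino80d* on the opposite strand, had 6, 14 and 9 counts in replicates 1, 2 and 3. *Smarca5-ps*, a transcribed processed pseudogene, had 4, 17 and 35 counts, and *Smarce1-ps1*, a processed pseudogene, had 171, 149 and 212. The last 2 share 39.1% and 55.9% of their 50-base words with *Smarca5* and *Smarce1*, so their reads cannot be assigned with certainty.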

How the results depend on the processing

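No paired analysis was possible because all libraries belong to 1 condition. The median level of the members, 11.9 FPKM, became 33.3 in TPM and 17.1 FPKM with the longest coding transcript, and ranged from 10.7 to 13.1 without 1 replicate. At most 10 counts were found in 2 members. With the longest coding transcript, leading shares became 96.3% (*Smarca4*), 89.8% (*Arid1a*), 86.9% (*Smarcc1*), 55.8% (*Smarcd1*), 85.8% (*Dpf2*), 74.7% (*Chd1*), 52.9% (*Hdac2*), 38.4% (*Mta1*), 79.2% (*Gatad2a*) and 57.0% (*Ruvbl2*). As shares of counts they became 96.6%, 86.4%, 89.4%, 60.6%, 89.6%, 72.0%, 64.2%, 37.1%, 71.9% and 64.6% for these genes, 89.5% for *Smarca5* and 35.3% for *Chd6*. With pseudogene copies added, chosen after seeing the data, they became 39.2% for *Hdac2* and 87.6% for *Smarca5*. The leading paralog changed in NuRD deacetylases and MTA proteins only, among these alternatives. Without 1 replicate, between 6 and 33 of 47 members varied. Without replicate 1 these were 12.8% of members, beside 1302 genes (8.11% of all tested). Without replicate 3 they were 70.2%, beside 7490 genes (46.7%). Members and all genes were not matched for depth here. The cause was not tested. With a trend on GC content removed, also chosen after seeing the data, replicate 1 was lowest in 29 of 47 members in place of 30. The share over all genes was not computed with that trend removed. Of 133 results recomputed, 104 moved by less than the replicate spread or within 1.5 times. This count includes checks that could not fail. A share averaged without 1 replicate always lies within the SD over all replicates, and adding pseudogene copies leaves families without copies unchanged. The count therefore does not measure how stable the results were. Depth limits *Actl6b* and *Dpf3*, whose counts are too few for a level.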
